A study of Drosophila melanogaster with 5 samples.

Results

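Of 10105 RNA polymerase II (Pol II) peaks called in Drosophila melanogaster eye discs, 3709 overlapped neither a Yorkie (Yki) peak nor a Scalloped (Sd) peak, which is 36.7% (exact 95% interval 35.8 to 37.7). They are called Pol II-only peaks below. A Pol II peak belonged to this set when it shared not even 1 bp with any of 11679 Yki peaks and any of 2557 Sd peaks in the authors' peak lists, so the members were chosen by the peak calls of all 3 lists. Among the rest, 6395 met a Yki peak and are called Yki-bound. These divide into 5396 without Sd and 999 with it, and 1 further Pol II peak had Sd without Yki. The label "without Yki or Sd" means that no peak was called there; it does not show that the proteins were absent.

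The peak lists came from chromatin immunoprecipitation followed by sequencing (ChIP-seq) of hand-dissected eye discs from third-instar larvae, the larval epithelium that makes the adult eye. Yki and Sd were each immunoprecipitated once, from discs carrying GMR-Gal4 and UAS-Drosophila Yki S168A, and Pol II once, from discs carrying GMR-Gal4 and UAS-Drosophila Yki-V5. The labels give ectopic cell proliferation as the phenotype of all 5 samples, 2 of which were input DNA and were not used here. Discs were pooled, with chromatin of about 300 discs and 10 µg of antibody for each immunoprecipitation, after 30 minutes in 2% formaldehyde. GMR-Gal4 drives its target in the differentiating cells of the posterior eye disc, while each sample took in the whole disc. Antibody and genotype differ together between the Pol II list and the other lists and cannot be told apart. With 1 library for each antibody, differences between sets of peaks are descriptions without a test, and the intervals cover counting error only. Read depth is unknown, since the lists hold neither counts nor coverage.

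Pol II is the enzyme that transcribes protein-coding genes. In Drosophila it often pauses just downstream of the start site, which gives a narrow accumulation at the promoter, and during elongation it also lies along the gene body, where its density per base is usually lower. Yki is the transcriptional coactivator that the Hippo pathway, a brake on organ growth, holds in check, and it reaches DNA through partners such as Sd, the TEAD-family protein of the fly. Pol II sites with no called Yki or Sd can therefore lie at promoters, in gene bodies or elsewhere. Peaks were not assigned to genes, because the gene table used here is on another genome release than the dm3 coordinates of the lists.

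Pol II-only peaks were narrower than Yki-bound ones and lower in score, the authors' value for each peak, which ranks peaks within a list. Their median width was 339 bp, with quartiles of 261 and 525 bp and a range from 200 to 15334 bp. Yki-bound peaks had a median of 483 bp (quartiles 354 and 773), and those that also had Sd reached 638 bp. Peaks under 300 bp made up 38.8% of the Pol II-only peaks and 13.5% of the Yki-bound ones. At the other end, 49 Pol II-only peaks, or 1.32%, were wider than 2000 bp, against 4.86% of Yki-bound peaks. In all, Pol II-only peaks covered 1.78 Mb, or 28.1% of the 6.34 Mb under Pol II peaks. A wide peak meets more of any list by its length, so width was not independent of the way the members were chosen.

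The median score of the Pol II-only peaks was 9.61 (quartiles 6.39 and 19.6), and that of Yki-bound peaks was 54.9 (24.8 and 90.5). The scores nevertheless overlapped over nearly the whole range, from 3.01 to 130.3 for Pol II-only and from 3.01 to 155 for Yki-bound peaks. Of the Pol II-only peaks, 75.0% lay in the lowest 4 deciles of Pol II score and 16.0% in the upper 5 deciles. Among peaks of similar width, 300 to 399 bp, the share that was Pol II-only was 84.2% in the lowest score decile (176 of 209 peaks), 15.8% in decile 5 (51 of 323) and 29.1% in the highest (23 of 79). In that band of widths the share was therefore higher in decile 1 than in deciles 5 and 10.

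Splitting the Pol II list by score separated Pol II-only peaks of different form. In score decile 1 their median width was 277 bp, close to the 272 bp of Yki-bound peaks of the same decile. It was 440 bp in decile 3 and 465 bp in decile 4, where Yki-bound peaks had 274 and 306 bp. In decile 5, scores from 19.7 to 30.2, the median of the Pol II-only peaks was 306 bp, and it then stayed between 306 and 396 bp up to decile 10. The median of Yki-bound peaks instead went up with every decile from 4 to 10 and ended at 661 bp. At low scores the Pol II-only peaks were thus the wider set, and from decile 5 upward the narrower.

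**Figure D1:**
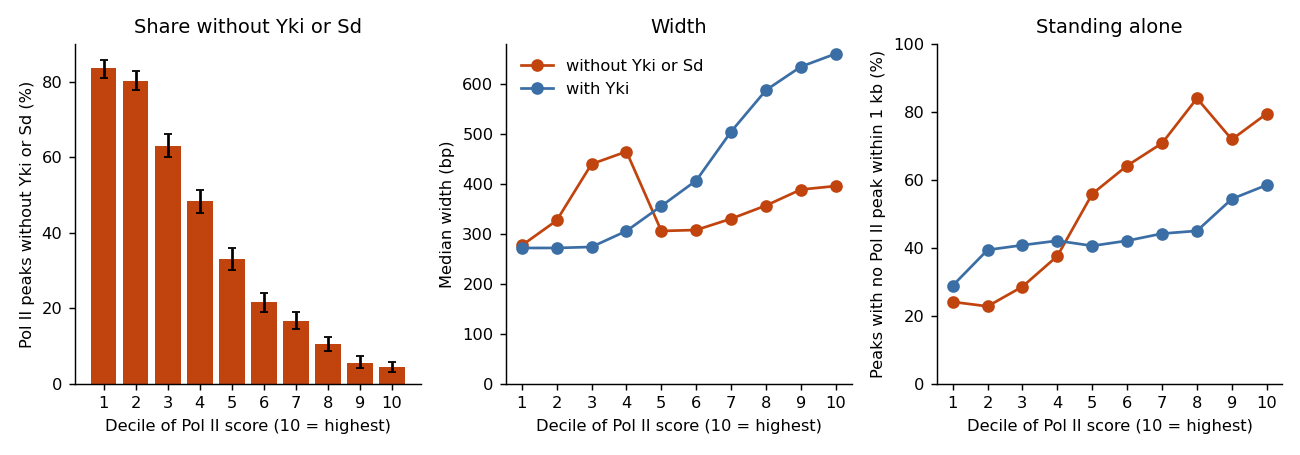
Pol II peaks by decile of Pol II score (x axis, 10 the highest). The left panel gives the percent that is Pol II-only with its exact 95% interval, the middle panel the median width in bp, and the right panel the percent with no other Pol II peak within 1 kb, for Pol II-only (red) and Yki-bound peaks (blue). The share falls from 83.6 to 4.35%, and the curves in the middle and right panels cross between deciles 4 and 5.

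Isolation followed the same division. A peak is called alone here when no other Pol II peak lay within 1 kb of its edges. In score deciles 1 to 4, 27.1% of 2783 Pol II-only peaks were alone (25.4 to 28.8), against 39.6% of 1259 Yki-bound peaks (36.8 to 42.3). In deciles 5 to 10 the order was the opposite, with 65.9% of 926 Pol II-only peaks alone (62.7 to 68.9) and 48.1% of 5136 Yki-bound ones (46.8 to 49.5). The highest share was 84.0%, among the 106 Pol II-only peaks of decile 8. The split between deciles 4 and 5 was chosen after the values were seen.

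Most Pol II-only peaks lay within a few kilobases of a Pol II peak that had Yki. The median gap between nearest edges was 1618 bp (quartiles 528 and 4765, n = 3708), with 1 peak on YHet left out because that sequence had no Yki-bound peak. A Yki-bound Pol II peak lay within 200 bp for 11.0% of them, within 1000 bp for 37.8%, within 5000 bp for 75.9% and within 20000 bp for 92.8%. For Yki-bound peaks the gap to the nearest other Yki-bound peak had a median of 1926 bp (quartiles 312 and 6322), and 39.9% had one within 1000 bp. Very short gaps were more frequent among Yki-bound peaks, 31.9% of which had another within 500 bp, against 23.8% of Pol II-only peaks. The overlap rule bears on these comparisons of gaps. A single Yki peak that meets neighbouring Pol II peaks makes each of them Yki-bound, and a Pol II-only peak cannot be part of such a group. How often this occurred was not counted.

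The order of these medians depended on score. Within each of the 10 score deciles the Pol II-only peaks had the longer median gap, although their pooled median was the shorter. The medians were 1154 and 668 bp in decile 1, 3274 and 1375 bp in decile 5, and 8319 and 3705 bp in decile 10, with the Pol II-only value first. In decile 9, with 57 Pol II-only peaks, they were nearly equal, at 3091 and 3020 bp. Low-scoring peaks lay nearer to Yki-bound peaks in both sets, and low-scoring peaks were the larger part of the Pol II-only set. Within deciles of width the order was mixed, since Pol II-only peaks had the longer gap in 4 deciles and the shorter in 6. In the widest decile their median gap was 633 bp, against 1216 bp for Yki-bound peaks.

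**Figure D2:**
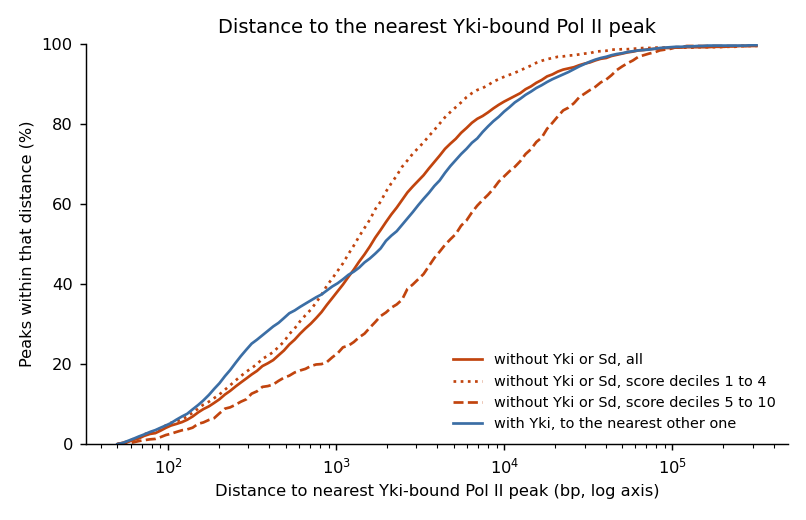
Cumulative percent of peaks (y axis) whose nearest Yki-bound Pol II peak lies within the distance on the x axis (bp, log scale). Red lines are Pol II-only peaks, all (solid), score deciles 1 to 4 (dotted, median 1299 bp) and deciles 5 to 10 (dashed, median 4457 bp), and the blue line is Yki-bound peaks to their nearest other one.

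Yki peaks were often near without meeting the Pol II peak. Of the Pol II-only peaks, 2.43% lay within 100 bp of a Yki peak, 17.3% within 500 bp and 57.5% within 2000 bp, with a median of 1596 bp. For 81.9% the nearest Yki peak overlapped another Pol II peak. The share of all Yki peaks that overlap a Pol II peak is not given here, so this value has no baseline. Sd peaks, of which the list holds fewer, were farther off, at a median of 13526 bp, and 4.96% of the Pol II-only peaks had one within 1000 bp. This distance was not particular to the set. The median was 15797 bp for Yki-bound peaks without Sd and 12249 bp over all Pol II peaks. At the limit of the overlap rule, 43 Pol II-only peaks lay within 50 bp of a Yki peak (median score 18.7, median width 302 bp), and 74 Yki-bound peaks shared at most 50 bp with one (median score 13.2, median width 281 bp).

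Neighbouring Pol II peaks were then joined into runs, with gaps of at most 1 kb, because peaks along 1 transcribed gene body would lie next to each other. Peaks carry no strand and no gene, so whether a run is 1 gene was not tested. Of the Pol II-only peaks, 63.2% were in a run of 2 or more peaks (61.6 to 64.8), against 53.6% of Yki-bound peaks. The largest part, 1811 peaks or 48.8%, lay in 1077 mixed runs, which also held Yki-bound peaks. A further 534, or 14.4%, lay in 215 runs made of Pol II-only peaks alone, and 1364, or 36.8%, stood by themselves. The gap that joins peaks set these shares. With 500 bp, 49.4% stood by themselves, and with 5 kb 15.0% did.

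The groups differed in form. For Pol II-only peaks standing by themselves the median score was 16.9 and the median width 301 bp. In mixed runs their median score was 8.34 and their median width 383 bp, and in Pol II-only runs 7.90 and 370.5 bp. For Yki-bound peaks of mixed runs the medians were a score of 53.2 and a width of 587 bp. They were 64.1 and 462 bp for Yki-bound peaks standing alone, and 43.9 and 447 bp in runs without Pol II-only peaks. In both sets the peaks standing alone thus had the highest median score and were narrower than those in mixed runs. In 74 of the 1077 mixed runs, or 6.87% (5.43 to 8.55), the highest-scoring peak was Pol II-only, although 51.5% of the peaks in these runs were.

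**Figure D3:**
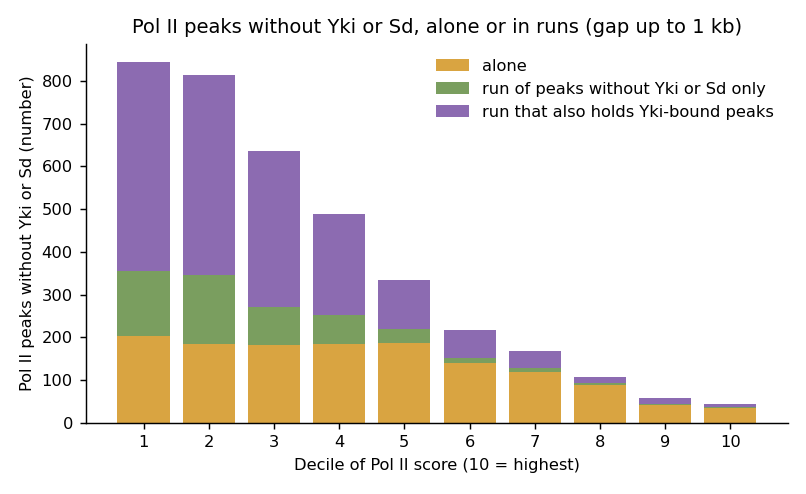
Number of Pol II-only peaks (y axis) by decile of Pol II score (x axis), divided into peaks standing alone, peaks in runs of Pol II-only peaks, and peaks in mixed runs that also hold Yki-bound peaks. Mixed runs hold 490 of 844 peaks in decile 1 and 6 of 44 in decile 10.

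Within mixed runs the Yki-bound peak tended to sit at the edge. In mixed runs of 3 or more peaks, 43.7% of the 1278 end peaks were Pol II-only (41.0 to 46.5), against 59.8% of the 1362 inner peaks (57.1 to 62.4). In 209 of these runs exactly 1 peak was Yki-bound. It was at an end of the run in 175 of them, or 83.7% (78.0 to 88.5), while ends were 56.7% of all positions in the same runs. It had the highest score of its run in 191, or 91.4%. These runs thus consisted mostly of a high-scoring Yki-bound peak at an end and lower-scoring Pol II-only peaks to its side.

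Runs made of Pol II-only peaks were short as a rule. Of the 215, 152 had 2 peaks, 45 had 3, 8 had 4 and 10 had 5 or more, with a median span of 1435 bp and a maximum of 12037 bp. Mixed runs spanned a median of 2454 bp, and 146 of 1077 were longer than 5 kb, against 8 of the 215 Pol II-only runs. Short spans were not particular to Pol II-only runs. The 779 runs without any Pol II-only peak had a median span of 1405 bp, and 645 of them had 2 peaks. Of these 779, 31 were longer than 5 kb and 3 had 5 or more peaks. In 3 of the 215 a Yki peak lay in a gap between the Pol II peaks. An Sd peak lay there in 0, which allows up to 1.40% with 3 counts as the limit, or 1.70% by the exact interval. The rule largely set these counts, since a Yki or Sd peak, at least 200 bp wide, had to fit inside a gap without touching a member. The median distance from a peak of these runs to the nearest Pol II peak was 261 bp. Along the chromosome, the nearest Pol II peak of a Pol II-only peak was itself Pol II-only in 47.2% of cases (45.6 to 48.8). For Yki-bound peaks this share was 32.1% (31.0 to 33.3), and over the whole list 36.7% of peaks were Pol II-only. Both neighbours were Pol II-only for 20.1% of Pol II-only and 9.96% of Yki-bound peaks. These neighbour shares were not split by score. As for the gaps above, a single Yki peak that meets neighbouring Pol II peaks makes each of them Yki-bound, which bears on these shares.

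The Pol II-only run with the most peaks and the longest span was on X from 1529528 to 1541564, with 12 peaks scoring 5.32 to 15.8 that covered 81.0% of its 12.0 kb. The second longest, on 3R from 17134017 to 17144982, had 6 peaks over 11.0 kb, 89.0% of it covered, and held a Pol II-only peak of 3668 bp, also among the 5 widest. Next came a run of 7 peaks over 6.64 kb on 2L from 22887563 to 22894206 and one of 5 peaks over 6.11 kb on 2R from 8461466 to 8467578. A run of 3 peaks over 5.88 kb on chromosome 4, from 1226269 to 1232148, held another of the 5 widest, at 4112 bp. By number of peaks, the first 5 also included 7 peaks on 3R from 8848477 to 8853126 and 6 on 3L from 10865673 to 10869852, both with scores no higher than 11.7. The peaks in all of these runs had scores in the lower part of the Pol II list, at most 27.6.

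The X run belongs to a larger region, chosen after its values were seen, that spans 87.8 kb from 1468793 to 1556615. It held 51 Pol II peaks, of which 47 were Pol II-only, 8 Yki peaks and 4 Sd peaks. The 47 had a median score of 10.9 (4.29 to 35.1) and a median width of 664 bp, and together they covered 51.8% of the region. The 4 Yki-bound peaks had scores from 11.5 to 112 and included the first peak of the region, 5414 bp wide with a score of 112, and an 11169 bp peak with a score of 64.9. All 8 Yki peaks overlapped these 4 peaks. Between them stood an unbroken series of 23 Pol II-only peaks over 30.4 kb, and after them one of 24 peaks over 38.6 kb. No Yki peak fell in either span. The overlap rule bears on this absence, since a Yki peak could lie there only in a gap without touching a member. The first 30 Pol II peaks of the region, 26 of them Pol II-only, form the mixed run with the most Pol II-only peaks, 53.1 kb long.

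**Figure D4:**
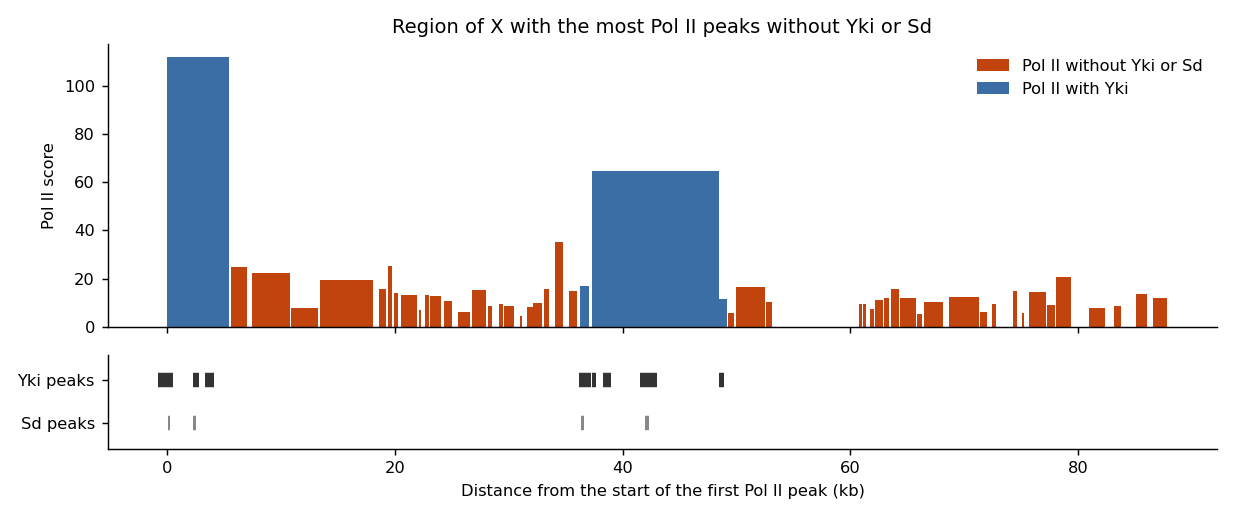
Pol II peaks of the 87.8 kb X region as bars of their true width, with Pol II score on the y axis and distance from the first Pol II peak in kb on the x axis; red bars are Pol II-only and blue bars Yki-bound. The lower strip marks the Yki and Sd peaks, which lie at the 4 blue bars, while the 47 red bars score 4.29 to 35.1. By the overlap rule no red bar can meet a Yki or Sd peak.

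Of the 5 widest Pol II-only peaks, 3 lay in long mixed runs. The widest, 15334 bp on 2R from 5522285 to 5537618 with a score of 26.0, was 159 bp from a Yki-bound Pol II peak and 5231 bp from the nearest Yki peak. Its run had 13 peaks over 39.4 kb, 12 of them Pol II-only, and the highest score in it was 93.7. The second widest, 5817 bp on 2R from 6411134 to 6416950 with a score of 17.9, was in a run of 15 peaks, 8 of them Pol II-only. The third (X, 1482238 to 1486866) was 4629 bp wide, had a score of 19.4 and belongs to the X region above. The 5 widest had scores between 17.9 and 27.6, below the median of 30.2 over all Pol II peaks.

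The highest-scoring Pol II-only peaks had another form. The first 10 had scores of 120.4 to 130.3, and 7 of them stood alone. The highest was a 507 bp peak on 2R from 20163179 to 20163685, with its nearest Yki peak 811 bp away and its nearest other Pol II peak 17387 bp away. The second, 1102 bp on 3R from 2169599 to 2170700 with a score of 129, was 231 bp from a Yki-bound Pol II peak and was the widest of the 10. The third (X, 6177364 to 6177826), which had a score of 128, was 993 bp from another Pol II-only peak. The next 3 each had a score of 127 and stood alone, at 3L 4263584 to 4264119, 3R 11636190 to 11636550 and 3R 7916121 to 7916506. Their nearest Yki peaks were 857, 2179 and 9477 bp away. The other 4 were at 2R 19570771 to 19571134, 3R 3586616 to 3586993, 2L 3046622 to 3047212 and 3R 12028558 to 12028960. The 10 peaks were 361 to 1102 bp wide, and none had a Yki peak nearer than 811 bp or an Sd peak nearer than 2116 bp, so they were not members through a narrow miss of the overlap rule.

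On the chromosome arms, the Pol II-only peaks farthest from a Yki-bound Pol II peak were also narrow and alone. The farthest was a 298 bp peak on 3R from 23263012 to 23263309, score 38.1, with the nearest Pol II peak of any kind 121185 bp away and the nearest Yki peak 109745 bp away. The next were at 3L 13796336 to 13796596, 3R 8981232 to 8981518, 3R 16275218 to 16275551 and X 14373951 to 14374198, with distances from 116221 down to 100309 bp. The 5 peaks were 248 to 334 bp wide and had scores from 20.7 to 57.5. For each of them the nearest Yki peak was closer than the nearest Yki-bound Pol II peak, and for the last it was 1037 bp away.

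Pol II-only peaks took similar shares of the large arms and a larger share of chromosome 4. They were 35.6% of Pol II peaks on 2L, 37.4% on 2R, 33.7% on 3L, 37.0% on 3R and 34.6% on X. The highest and lowest of these 5 arms differed by 3.67 percentage points, and all 5 exact intervals shared the values between 35.2 and 35.9%. On chromosome 4, the small, largely heterochromatic autosome, 137 of 196 Pol II peaks were Pol II-only, or 69.9% (63.0 to 76.2). Their density was 102 per Mb there, against 25.6 to 34.9 per Mb on the large arms, while the other Pol II peaks had 43.8 per Mb on chromosome 4 and 49.2 to 58.6 on the large arms. Chromosome 4 carried 3.69% of Pol II-only peaks and 0.922% of the other Pol II peaks.

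Scores on chromosome 4 were low, with a median of 10.9 over all its Pol II peaks against 30.9 on the 5 large arms together. If the chromosome's peaks had been Pol II-only at the rate of their score deciles over the whole list, 53.1% would have been, which is under the exact interval of the observed 69.9%. For each large arm the same calculation gave 35.0 to 37.6%. Pol II-only peaks of chromosome 4 had a median width of 387 bp, against 336 bp on the large arms, and 19.0% stood alone, against 37.0%. Their median distance to a Yki-bound Pol II peak was 3220 bp, against 1536 bp. They were thus denser and more often in runs, yet farther from Yki-bound Pol II. Apart from density, all 196 Pol II peaks of the chromosome, Pol II-only peaks included, went the same way. Their median width was 509.5 bp, against 423 bp over the whole Pol II list. The median distance to a Yki-bound Pol II peak was 3080 against 1789 bp, and to the nearest Pol II peak 356 against 648 bp. The chromosome had 59 Yki-bound Pol II peaks and 109 Yki peaks in all, over 1.35 Mb. Its Pol II-only peaks were nearer to Sd peaks, at a median of 5299 bp, against 13526 bp for the whole Pol II-only set. This nearness was not particular to them. Over all Pol II peaks of the chromosome the median was 3968 bp, against 12249 bp over the whole Pol II list. The part of score, and of the Yki calls on this chromosome, in its high share was not tested further.

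**Figure D5:**
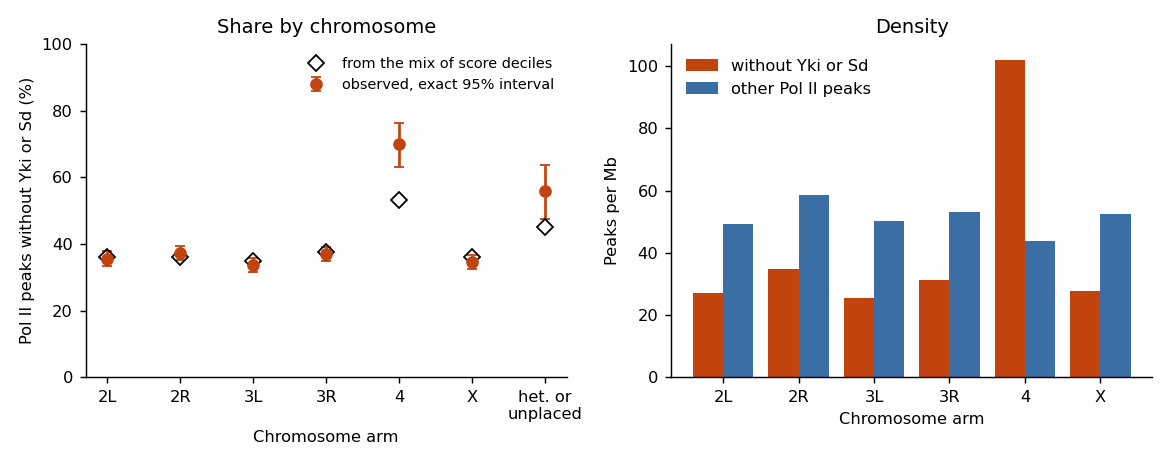
Left, percent of Pol II peaks that are Pol II-only (y axis) by chromosome arm (x axis), with exact 95% intervals (red) and the percent that the arm's mix of score deciles would give (open diamonds). Right, Pol II-only (red) and other Pol II peaks (blue) per Mb; chromosome 4 stands at 102 and 43.8 per Mb.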

How the data were processed

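The authors deposited 1 peak list for each of the Yki, Sd and Pol II immunoprecipitations. The submitters' processing notes name dm3 as the build and MACS2, Bowtie and CASAVA (version 1.8.2) as tools. What parameters, other versions and control library were used is not given in the sources used here. Columns are chromosome, start, end, name and a score whose unit no header states. The deposited score has its minimum at 3.01 in the Pol II and Yki lists and 2.00 in the Sd list, as a −log10 q value would with a whole-number limit; it ranked peaks within a list only. Every peak was at least 200 bp wide, and Pol II peaks were at least 52 bp apart, so how the caller joined peaks sets widths and runs.

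Coordinates are 1-based dm3. Distances count bases between nearest edges. Runs join Pol II peaks at most 1 kb apart. Deciles rank all 10105 Pol II peaks. Intervals of percents are exact (Clopper-Pearson, 95%) and take peaks as independent. Arm length is the last peak end in any list. Membership and runs were checked on simulated data, and membership and distances against bedtools.

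The members, lists and tests were chosen with earlier results of these data known. Named regions are the 10 highest-scoring, 5 widest and 5 most distant members, the 5 Pol II-only runs with the most peaks and the 5 longest, and 5 windows (100 kb) richest in members. Alternatives were other overlap rules, score limits, run gaps, a centre-to-centre distance, the arms alone and equal weight to deciles. The tools were scipy 1.17.1, pandas 2.3.3 and numpy 2.4.6 under Python 3.11.15, with plots from matplotlib 3.10.9. Input libraries were not analysed here, and no sequence of build dm3 was used.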

Additional observations from a re-analysis of the deposited data

How the results depend on the processing

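Stability was judged against the 95% interval of each value, a narrow standard with 1 library per antibody. The share of Pol II peaks without Yki or Sd, 36.7%, was 45.5% when an overlap needed 50% of the shorter peak, 23.8% when a gap of 1 kb counted as shared, 65.0% with central 200 bp peaks, 11.7% in the upper 50% of Pol II peaks by score and 58.3% with the upper 50% of Yki and Sd peaks. In the order 1 kb gap, upper 50% of Pol II and upper 50% of Yki and Sd, the median width was 328, 348 and 372 bp, and it was 359.6 bp with score deciles weighted equally. The median score was 11.7 with the 50% overlap, 19.9 with central peaks, 53.2 with the upper 50% of Pol II, 15.5 with the upper 50% of Yki and Sd and 10.5 with width deciles weighted equally. In each of these the other Pol II peaks stayed wider and higher in score.

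The median distance to a Yki-bound Pol II peak, 1618 bp, was 1924 bp with the 50% overlap, 2581 with the 1 kb gap, 5542 with central peaks, 7952 with the upper 50% of Pol II, 3697 with the upper 50% of Yki and Sd, 2324 from centre to centre and 3824 with score deciles weighted equally. It was above that of Yki-bound peaks (648, 4414 and 1765 bp) with the 1 kb gap, the upper 50% of Pol II and equal score deciles. With the upper 50% of Yki and Sd it was nearly equal to theirs, 3674 bp, which lay within its interval (3500 to 3878). In the other settings it was below theirs. The 1 kb gap rule itself keeps members more than 1 kb from any Yki peak, which bears on the order found with it. The share in runs, 63.2%, was 50.6% with the 1 kb gap, 49.2% with central peaks, 17.5% with the upper 50% of Pol II, 59.5% with the upper 50% of Yki and Sd, 46.1% with equal score deciles, and 50.6, 74.2 and 85.0% with run gaps of 500 bp, 2 kb and 5 kb. It was below that of Yki-bound peaks (59.1, 25.9 and 56.4%) with the 1 kb gap, the upper 50% of Pol II and equal score deciles. Equal score deciles for distance and runs were chosen after seeing the data; the causes were not tested. The Sd score limit of 3 and the arms alone kept all 6 values within their intervals, and the spread over the large arms stayed within its interval throughout. No paired analysis was possible because the groups held 1 sample each. Depth is unknown, so a weak Yki or Sd site under the calling limit counts here as none.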

Other observations

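Heterochromatic and unplaced sequence held 87 of the Pol II-only peaks, 55.8% of its 156 Pol II peaks (47.6 to 63.7). Of these, 26 were on Uextra, out of 47 Pol II peaks there, and 23 on 2RHet, out of 31. Of the 87, 54.0% stood alone, and their median distance to a Yki-bound Pol II peak was 17159.5 bp. The score deciles of this sequence would give 45.2%, under the observed interval. These sequences are fragmentary in the assembly, which bears on any distance along them.

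Among 1206 windows of 100 kb on the 6 arms, a window held a median of 2 Pol II-only peaks, 288 held 0, and 183 held more Pol II-only than other Pol II peaks. The most, 33, were on X from 1500001 to 1600000, beside 8 other Pol II peaks, followed by 2R from 5500001 to 5600000 with 23 and 4. The next 3 windows held 19 each, at 2L 8400001 to 8500000, 2R 4500001 to 4600000 and 3R 9400001 to 9500000. In 40 windows, with 68 Pol II-only peaks, no other Pol II peak was found. When each of the 5 large arms was divided into 5 bins of equal length, the Pol II-only share ran from 29.6% in bin 3 of 3L to 41.0% in bin 2 of 3R.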
